A study of Homo sapiens with 6 samples.

Results

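The metallothioneins are small, cysteine-rich proteins that bind zinc, copper and cadmium, and MTF1 is the zinc-sensing transcription factor that switches their genes on. The genes described here are the 8 metallothionein genes MT1A, MT1E, MT1F, MT1G, MT1H, MT1M, MT1X and MT2A together with MTF1, 9 of the 57500 genes counted in each library. They were chosen by name as a family after the response to glycine of some of them was known, so their differences between glycine and vehicle are given as values with errors and carry no p-value. The gene lists used below were also chosen with earlier results of these data known, so their adjusted p-values are not independent of that choice. The RNA came from HepG2, an established human hepatoma cell line, labelled as wild type in every library and grown in a medium that itself contained glycine. The cells were kept for 24 h with 10 mM glycine added or with vehicle, and 3 libraries were sequenced from each group. The comparison asks which transcripts differ when the supply of glycine is raised, in a study of cyanide made by mammalian cells. HepG2 is a single tumour-derived line, so the values describe that line and not liver tissue.

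In cells, zinc that enters is bound by metallothionein or moved out of the cytosol by transporters of the SLC30 family, while the SLC39 family brings it in. When free zinc rises, MTF1 binds short DNA sequences called metal response elements, and transcription of metallothioneins and of the exporter SLC30A1 goes up. Metallothionein genes are also known to respond to glucocorticoids, to inflammatory cytokines and to oxidants, and the liver is a tissue where they are strongly induced.

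The metal response element has a conserved core, TGCACNC or TGCGCNC, in which N is any base. It was searched for on both strands in the 250 bases before the start site in RefSeq gene models on the build GRCh38.p14. Such windows were at hand for 4 of the 9 genes, MT2A, MT1X, MT1H and MTF1. The sequences of the metallothioneins among them are shown because they differ in the number of cores and, below, in expression. Capitals mark the cores on either strand, and the sequences run 5′ to 3′ on the plus strand of chromosome 16, which is the strand of all of these genes. The regions are chr16:56608334-56608583 for MT2A, chr16:56682220-56682469 for MT1X and chr16:56669564-56669813 for MT1H.
MT2A: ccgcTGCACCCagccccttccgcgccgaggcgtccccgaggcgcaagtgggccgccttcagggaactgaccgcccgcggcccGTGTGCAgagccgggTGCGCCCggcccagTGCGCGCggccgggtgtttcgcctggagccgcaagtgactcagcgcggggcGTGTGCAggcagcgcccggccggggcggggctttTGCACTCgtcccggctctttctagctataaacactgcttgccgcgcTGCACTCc
MT1X: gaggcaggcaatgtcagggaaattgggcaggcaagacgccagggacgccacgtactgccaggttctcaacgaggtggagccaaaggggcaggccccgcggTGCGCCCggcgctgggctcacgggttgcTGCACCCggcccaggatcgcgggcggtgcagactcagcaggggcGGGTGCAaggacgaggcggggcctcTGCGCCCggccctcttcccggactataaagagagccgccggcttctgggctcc
MT1H: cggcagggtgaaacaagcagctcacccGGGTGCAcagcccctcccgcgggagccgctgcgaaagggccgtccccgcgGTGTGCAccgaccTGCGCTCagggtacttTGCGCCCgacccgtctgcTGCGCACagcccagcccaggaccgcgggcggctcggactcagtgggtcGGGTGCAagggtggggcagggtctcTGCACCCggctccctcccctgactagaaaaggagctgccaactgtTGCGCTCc

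MT2A held 7 cores, MT1X held 4 and MT1H held 8, whereas the window of MTF1 held 0. At least 1 core stood in 24.8% of all 35116 upstream windows. At least 4 stood in 0.208% of them, at least 7 in 0.0228% and at least 8 in 0.0142%. These shares are over windows of any GC content, and windows of like GC content were not compared separately. The GC content of the windows of MT2A, MT1X, MT1H and MTF1 lay between 70 and 73.2%, so windows with and without cores among these genes were alike in it. A core lay from 53 to 47 bases before the start in MT1X and MT1H, and 1 base further upstream in MT2A. A core on the opposite strand lay at -78 to -72 in MT1X and MT1H and at -88 to -82 in MT2A. A match is a stretch of letters and does not show that MTF1 bound there.

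**Figure D1:**
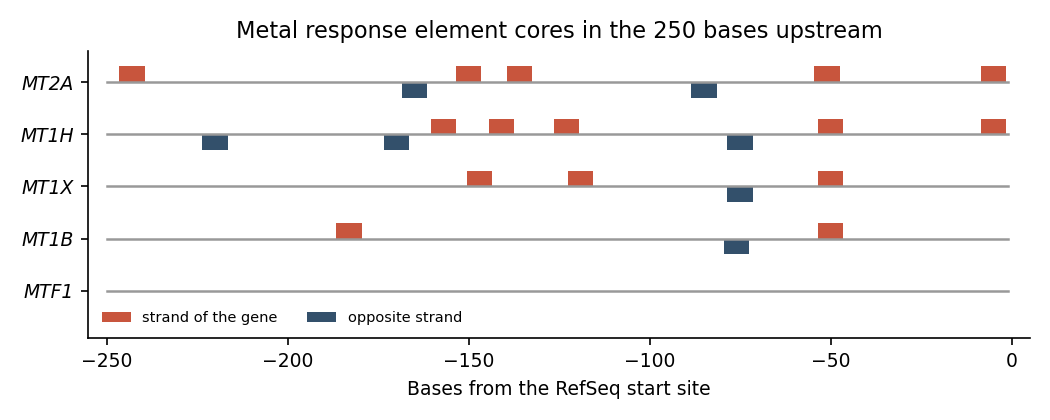
Position of each metal response element core in the 250 bases upstream of the RefSeq start of MT2A, MT1H, MT1X, MTF1 and the low-count family member MT1B. The x axis gives bases from the start, bars above a line are cores on the strand of the gene and bars below it are cores on the opposite strand. MT1H has 8 bars, MT2A 7, MT1X 4, MT1B 3 and MTF1 0.

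The 8 metallothionein genes lie in a cluster on chromosome 16, from 56608199 to 56684196 on GRCh38, a span of 76 kb. In order along it are MT2A (56608199 to 56609497), MT1E (56625475 to 56627112), MT1M (56632233 to 56633986), MT1A (56638666 to 56640087) and MT1F (56657694 to 56660698). MT1G (56666731 to 56668065), MT1H (56669814 to 56671129) and MT1X (56682424 to 56684196) follow. These positions are those of the counted genes, and for MT2A and MT1X they start before the RefSeq start used above. The upstream window of MT2A thus lies within the counted gene, and that of MT1X reaches past its listed start. MT1G is the member of the cluster on the minus strand, and MTF1 lies apart on chromosome 1 (37809567 to 37859620, minus strand).

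Because the family arose by duplication, reads can fit more than 1 of its genes, and how such reads were counted is not given in the sources used here. Of the 50-base windows in the GENCODE transcripts of each gene, 16.5% in MT1G, 15.8% in MT1H, 9.87% in MT1M, 7.1% in MT1E and 5.76% in MT1A also stood in another metallothionein transcript. The share was 3.64% in MT1X, 3.02% in MT2A and 1.22% in MT1F. Of the 100-base windows, none was shared within the family except in MT1H, at 1.39%. Within the family, MT1G, MT1H and MT1M thus shared the most. Counting genes outside it, MT1X shared the most, 18.3% of its 50-base and 11.3% of its 100-base windows. Its exons were overlapped over 18.1% of their length by the unnamed gene ENSG00000259827, which had 0 counts in all 6 libraries.

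The family differed unevenly between the groups. MT1E, MT1G, MT1F, MT1X and MT1M were lower in every glycine library than in any vehicle library. The fitted change between the groups was between 39 and 66.4% lower. MT2A, the most abundant member, and MT1A overlapped between the groups, as did MTF1, and MT1H was close to absent. Of the 8 members with enough counts to be fitted, 5 were called lower and 0 higher at an adjusted p below 0.05, where 13.3% of all 15492 fitted genes were called in either direction, 6.54% lower and 6.71% higher. Those same 5 had no overlap between groups, which held with glycine lower for 14.4% of fitted genes. Nothing is read from these counts, since the family was picked with this comparison known. The median log2 change of the 8 fitted members was -0.81, and that of all fitted genes was 0.00. In a bulk sample, fewer cells that express a gene and less of its RNA per cell cannot be told apart. Levels below are CPM, in which counts are scaled to a common library size, and each change is on the log2 scale with the standard error of the edgeR fit across all genes.

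MT1X had 68.3, 74.3 and 70.2 CPM in vehicle replicates 1, 2 and 3 and 29, 29.8 and 32.6 CPM with glycine. The lowest vehicle library lay far above the highest glycine library. The mean went from 71 ± 3.06 to 30.5 ± 1.92 CPM (SD, n = 3 each), a log2 change of -1.22 ± 0.0694 (95% interval -1.37 to -1.07). MT1X ranked 54 of 15492 fitted genes when they were ordered from the lowest log2 change.

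MT1F, another of the zinc-binding MT1 isoforms, had 61.9, 65.1 and 70 CPM with vehicle and 31.6, 34.9 and 29 CPM with glycine. All of its glycine values were near one level, with no library of the other group in between. The means were 65.7 ± 4.05 and 31.8 ± 2.96 CPM, with a log2 change of -1.04 ± 0.0791 (95% interval -1.22 to -0.87). MT1F and MT1X had similar levels with vehicle, and with glycine MT1F was 51.5% and MT1X 57% lower.

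MT1G had 117, 108 and 123 CPM with vehicle and 61.5, 64.7 and 58.3 CPM with glycine, again without overlap. Its mean went from 116 ± 7.43 to 61.5 ± 3.21 CPM and its log2 change was -0.92 ± 0.069 (95% interval -1.07 to -0.77). MT1G shared the most 50-base windows with other members, as given above.

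MT1E, a further MT1 isoform, had 167, 171 and 182 CPM with vehicle and 105, 107 and 105 CPM with glycine. The glycine libraries were almost identical, with an SD of 0.913 CPM around 106 CPM, against 7.7 CPM around 173 CPM with vehicle. The log2 change was -0.71 ± 0.0606 (95% interval -0.84 to -0.58), the smallest fall of the 5 genes.

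MT1M had the lowest level and the largest log2 change of the 5, -1.57 ± 0.232 (95% interval -2.08 to -1.07). Its counts were 80, 78 and 89 with vehicle and 31, 54 and 19 with glycine, or 2.28, 2.23 and 2.47 CPM against 0.97, 0.922 and 0.45 CPM. Glycine replicate 3 lay below the other glycine libraries, and the spread of the glycine group, 0.781 ± 0.288 CPM, was wide for its level. When each library was left out in turn, the change of MT1M lay between -1.76 and -1.31.

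MT2A, usually the main metallothionein of human cells, had 510.4, 538 and 556 CPM with vehicle and 459, 539 and 471 CPM with glycine. Glycine replicate 2 stood within the vehicle range, while the other glycine libraries lay below it. The means were 535 ± 23.2 and 489.9 ± 43.1 CPM, and the log2 change of -0.13 ± 0.0766 had a 95% interval from -0.29 to 0.04. MT2A ranked 4057 of 15492 from the lowest change.

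MT1A had 2.65, 2.89 and 2.95 CPM with vehicle and 2.69, 3.16 and 2.89 CPM with glycine, with the groups interleaved. Its counts were 93, 101 and 106 against 86, 185 and 122, and its log2 change was 0.05 ± 0.135 (95% interval -0.24 to 0.34). Across the alternative scalings, tests and left-out libraries the change lay between -0.02 and 0.09, so it had no fixed sign.

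MT1H had 0, 2 and 4 counts with vehicle and 0, 0 and 2 with glycine, too few for a fold change. A limit of 3 counts corresponds to between 0.051 and 0.0944 CPM in these libraries, and this covers counting error only. MT1H thus held 8 upstream cores and almost no transcript, while MT1X held 4 and was well expressed. Of 12 further family members and pseudogenes, 0 had enough counts to be fitted. MT1B was counted 3, 3 and 4 times with vehicle and 0, 3 and 1 times with glycine, and MT3 and MT4 were at 0 in every library.

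**Figure D2:**
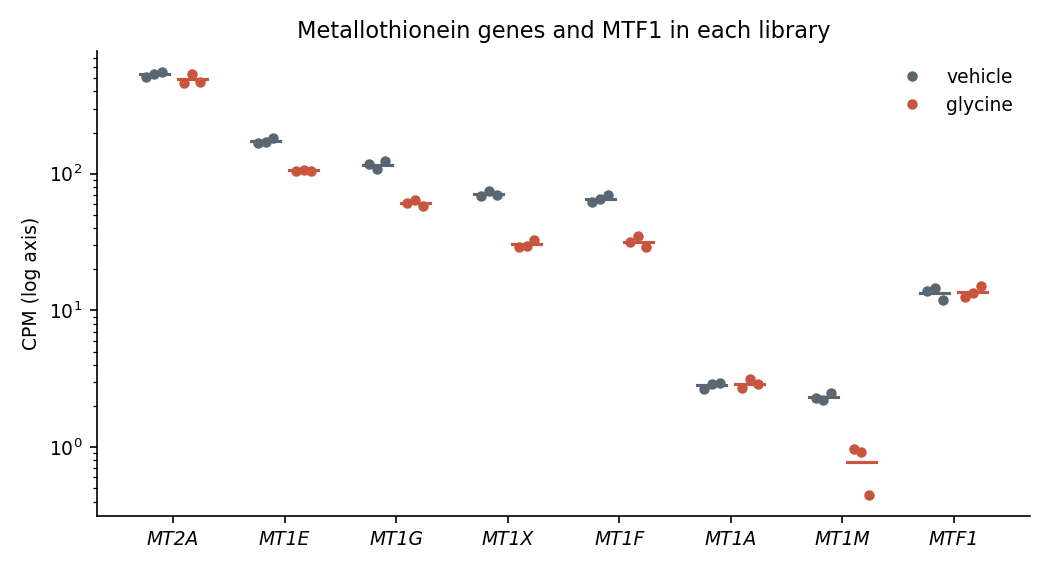
Level of MTF1 and each metallothionein gene other than MT1H in every library, in CPM on a log axis, with points for single libraries and a line at each group mean. MT1E, MT1G, MT1F, MT1X and MT1M separate by group, while MT2A, MT1A and MTF1 overlap.

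Levels can be ranked between genes only per length, here as CPM per kb of exon. The length used joins all listed exons of a gene, from 396 bases in MT1A to 1889 in MT1F and 8024 in MTF1. It need not be the length of the transcripts that were made, so close ranks below hold for this length only. With vehicle the order was MT2A (412 ± 17.9), MT1E (165 ± 7.32), MT1G (155 ± 9.91), MT1X (40 ± 1.72), MT1F (34.8 ± 2.14), MT1A (7.15 ± 0.395), MT1M (2.47 ± 0.135) and MTF1 (1.67 ± 0.161). On this scale MT1E and MT1G did not differ beyond their spread with vehicle. With glycine MT2A stood at 377 ± 33.2, MT1E at 100.4 ± 0.868 and MT1G at 82 ± 4.28 CPM per kb. MT1X (17.2 ± 1.08) and MT1F (16.8 ± 1.57) then overlapped, and MT1A was at 7.36 ± 0.592. MT1M was at 0.829 ± 0.305, on this scale below MTF1 at 1.71 ± 0.158.

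Summed over the 8 metallothionein genes, the level was 929, 962 and 1007 CPM with vehicle and 690.3, 779 and 699 CPM with glycine. The groups did not overlap, and glycine replicate 2 was again the highest of its group. The mean went from 966 ± 39.1 to 723 ± 49 CPM, a log2 difference of -0.42 or 25.2% less.

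The 7 MT1 genes together had 419, 424 and 450.3 CPM with vehicle and 231, 240.1 and 228 CPM with glycine. That was 45.9% less, a log2 difference of -0.89, so the pool without MT2A differed by more than the whole pool. Per kb of exon the whole sum went from 816 ± 33 to 602 ± 39.2, a log2 difference of -0.44. Metallothionein counts made up 0.0961% of all counts with vehicle and 0.0726% with glycine.

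The make-up of the pool shifted to MT2A. Its share of the summed CPM was 54.9, 55.9 and 55.3% with vehicle and 66.5, 69.2 and 67.4% with glycine, a rise of 12.3 percentage points with no overlap. MT1E went from 17.9 to 14.6% of the pool, MT1G from 12 to 8.51%, MT1X from 7.35 to 4.23% and MT1F from 6.8 to 4.4%. Per kb of exon the share of MT2A went from 50.5 to 62.6%, that of MT1E from 20.2 to 16.7% and that of MT1G from 19 to 13.6%.

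Ratios of 1 gene to MT2A within a library do not depend on how libraries are scaled. The ratio of MT1X to MT2A was 0.134, 0.138 and 0.126 with vehicle and 0.0631, 0.0553 and 0.0693 with glycine, a log2 difference of -1.09. On the same scale the ratio differed by -1.53 for MT1M, -0.92 for MT1F, -0.79 for MT1G and -0.58 for MT1E, each without overlap of the groups. The ratio of MT1A to MT2A was 0.00529 ± 9.13e-05 with vehicle and 0.00595 ± 0.000155 with glycine, also without overlap. MT1A had between 86 and 185 counts per library, so counting error is large beside so small a difference, and no direction is read from it. In CPM, no overlap in either direction held for 31.6% of fitted genes. A ratio shows unequal change of the members and not which of them moved.

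**Figure D3:**
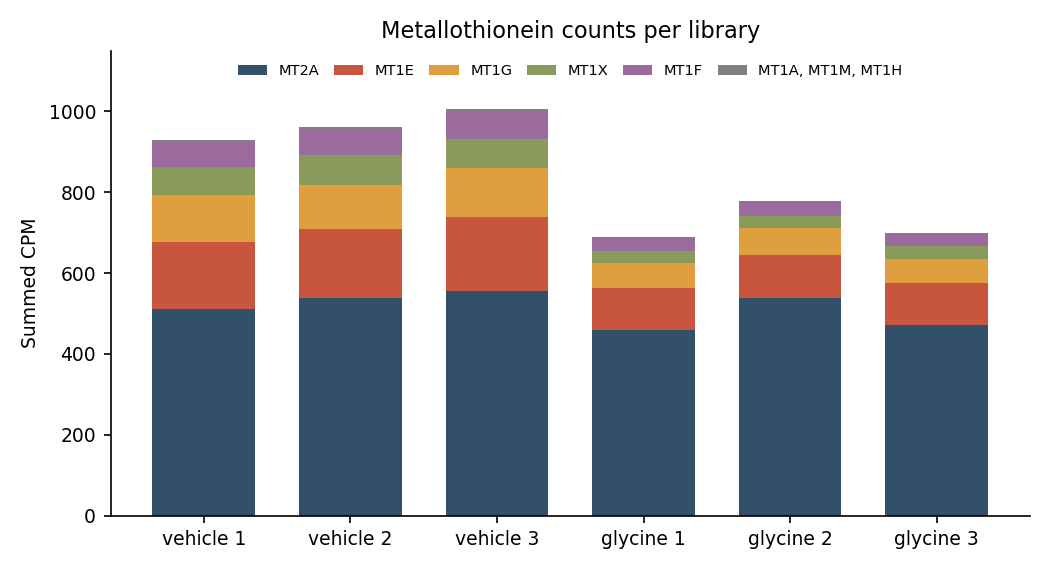
Summed metallothionein level in each library, in CPM, stacked by gene. The bars of the vehicle libraries reach between 929 and 1007 CPM and those of the glycine libraries between 690.3 and 779 CPM, with the MT2A segment of similar height in both groups.

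Position in the cluster did not order the changes. MT2A at 1 end and MT1A near the middle had the changes closest to 0. MT1E and MT1M stand between them and were both lower with glycine, as were MT1F, MT1G and MT1X beyond MT1A. Of 9 flanking genes listed on chromosome 16, 7 could be fitted, with a median log2 change of 0.07. Where 13.3% of all fitted genes were called, 1 of the 7 was. It was NUP93, a nuclear pore component, at 99 ± 3.02 and 115 ± 2.78 CPM (log2 change 0.22 ± 0.0593, adjusted p = 0.0264 by the edgeR quasi-likelihood test). That call was lost when vehicle replicate 1 was left out (adjusted p = 0.119) and likewise for glycine replicates 1, 2 and 3 (0.133, 0.0829 and 0.0673). BBS2, HERPUD1, NUDT21 and OGFOD1 were not called, although HERPUD1, lower with glycine (log2 change -0.18), passed without vehicle replicate 2 (0.0483). CETP, the plasma cholesteryl ester transfer protein, had the larger log2 change of 0.58 but was not called (adjusted p = 0.0665). Its groups did not overlap, which held with glycine higher for 17.2% of fitted genes. It passed when low genes were not filtered out (0.0433).

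**Figure D4:**
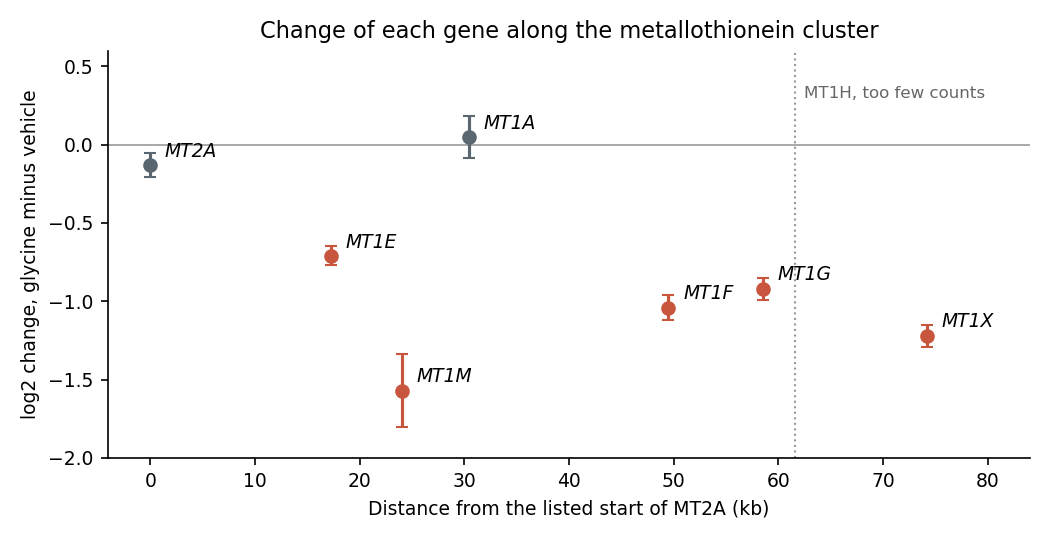
The log2 change of each metallothionein gene, glycine minus vehicle, against its distance in kb from the listed start of MT2A, with bars for the standard error. The dotted line marks the position of MT1H, which had too few counts for a value. MT2A and MT1A lie near 0, and the other genes with a value lie below -0.5.

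MTF1 itself had 13.8, 14.5 and 12 CPM with vehicle and 12.6, 13.4 and 15.1 CPM with glycine. The groups overlapped throughout, with the highest and lowest values in glycine replicate 3 and vehicle replicate 3. The means were 13.4 ± 1.3 and 13.7 ± 1.27 CPM, and the log2 change of 0.03 ± 0.0965 had a 95% interval from -0.17 to 0.24. Its change lay between -0.05 and 0.09 over the alternatives. These are transcript levels, and the activity of the factor, which is set by zinc binding, was not measured.

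Of a list of 10 other genes described as MTF1 targets, all were fitted, with 5 called lower and 1 higher and a median log2 change of -0.16. Among all fitted genes 6.54% were called lower and 6.71% higher. PGF, a placental growth factor, had 45.2, 47.8 and 49.2 CPM with vehicle and 25.7, 24.2 and 24.1 CPM with glycine. It fell by 0.94 on the log2 scale (s.e. 0.0669, adjusted p = 1.77e-06 by edgeR), which is within the range of the lower MT1 genes. CSRP1, a LIM-domain protein, fell from 134 ± 10.3 to 89.5 ± 3.11 CPM (log2 change -0.58 ± 0.0688, adjusted p = 9.99e-05). SLC39A10, a zinc importer that MTF1 is known to repress, rose from 15 ± 1.74 to 20.4 ± 1.17 CPM (log2 change 0.45 ± 0.091, adjusted p = 0.00615).

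SLC30A1, the exporter that is the best-known MTF1 target beside the metallothioneins, was at 99, 102 and 91.1 CPM with vehicle and 84.1, 76.8 and 86 CPM with glycine. Its groups did not overlap, which held with glycine lower for 14.4% of fitted genes. SLC30A1 fell by 0.24 on the log2 scale (s.e. 0.0684, adjusted p = 0.0334). GCLC, the catalytic subunit of the first enzyme of glutathione synthesis, had a log2 change of -0.22 (adjusted p = 0.0325) and NDRG1 of -0.25 (adjusted p = 0.0252). Each of these 3 calls was lost in several fits that left out 1 library, and fewer libraries were fitted in each of them. For SLC30A1 the adjusted p was 0.0831 and 0.0891 without vehicle replicates 1 and 2, and 0.0694 and 0.135 without glycine replicates 1 and 2. For GCLC it was 0.086 and 0.082 without vehicle replicates 1 and 2 and 0.0939, 0.0884 and 0.0863 without glycine replicates 1, 2 and 3. For NDRG1 it was 0.0616 and 0.053 without vehicle replicates 2 and 3 and 0.11 and 0.077 without glycine replicates 1 and 3. Leaving out a library lowered the list's count of lower calls to between 2 and 3, except without vehicle replicate 3. HAMP, which encodes the iron hormone hepcidin, the iron exporter SLC40A1 and the selenoprotein genes SELENOW and SELENOH were not called, with log2 changes of -0.10, 0.18, 0.19 and 0.19.

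Upstream windows were at hand for these targets except NDRG1, and they held fewer cores than that of MT2A. CSRP1 held 4, as many as MT1X, in the window of 1 of its 3 start sites. SLC40A1 and GCLC held 2 each and SLC30A1 held 1. At least 2 stood in 5.53% of all windows and at least 1 in 24.8%. PGF, SLC39A10, HAMP, SELENOW and SELENOH held 0, which says only that the core is not in those letters.

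Of 10 zinc exporters of the SLC30 family, 7 were fitted, with a median change of -0.05 on the log2 scale. Of the 7, 3 were called, all lower, where 6.54% of all fitted genes were called lower. Besides SLC30A1 these were SLC30A10 (-0.39, adjusted p = 0.0118), better known as a manganese exporter, and SLC30A7 (-0.34, adjusted p = 0.00994), which loads zinc into the Golgi. SLC30A3, SLC30A5, SLC30A6 and SLC30A9 lay between -0.05 and 0.14 and were not called.

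Of 14 SLC39 importers, 12 were fitted, with 5 called lower, 1 higher and a median of -0.25. Among all fitted genes 6.54% were called lower and 6.71% higher. SLC39A14, which carries zinc, iron and manganese into hepatocytes, had 1075, 973 and 954 CPM with vehicle and 632, 599 and 662 CPM with glycine. It fell by 0.67 on the log2 scale (s.e. 0.0758, adjusted p = 7.88e-05). SLC39A11 fell from 40.7 ± 0.994 to 23.3 ± 1.89 CPM (log2 change -0.80, adjusted p = 1.14e-05) and SLC39A13 from 28.2 ± 2.59 to 21.4 ± 0.805 CPM (log2 change -0.40, adjusted p = 0.00541).

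The remaining importer calls were weaker. SLC39A5 fell by 0.28 on the log2 scale (adjusted p = 0.016), a call lost without glycine replicates 1 and 3 (0.0503 and 0.067). SLC39A7, which releases zinc from the endoplasmic reticulum, fell by 0.24 (adjusted p = 0.0259), and without glycine replicates 1, 2 and 3 its adjusted p was 0.108, 0.0563 and 0.0745. Without vehicle replicates 1 and 3 it was 0.0662 and 0.07. Without glycine replicate 3 the importers counted 3 lower calls. SLC39A9 had a log2 change of -0.25 and was not called (adjusted p = 0.0602), but passed without glycine replicate 1 (0.0184), without the filter on low genes (0.0208) and with DESeq2 (0.0387).

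**Figure D5:**
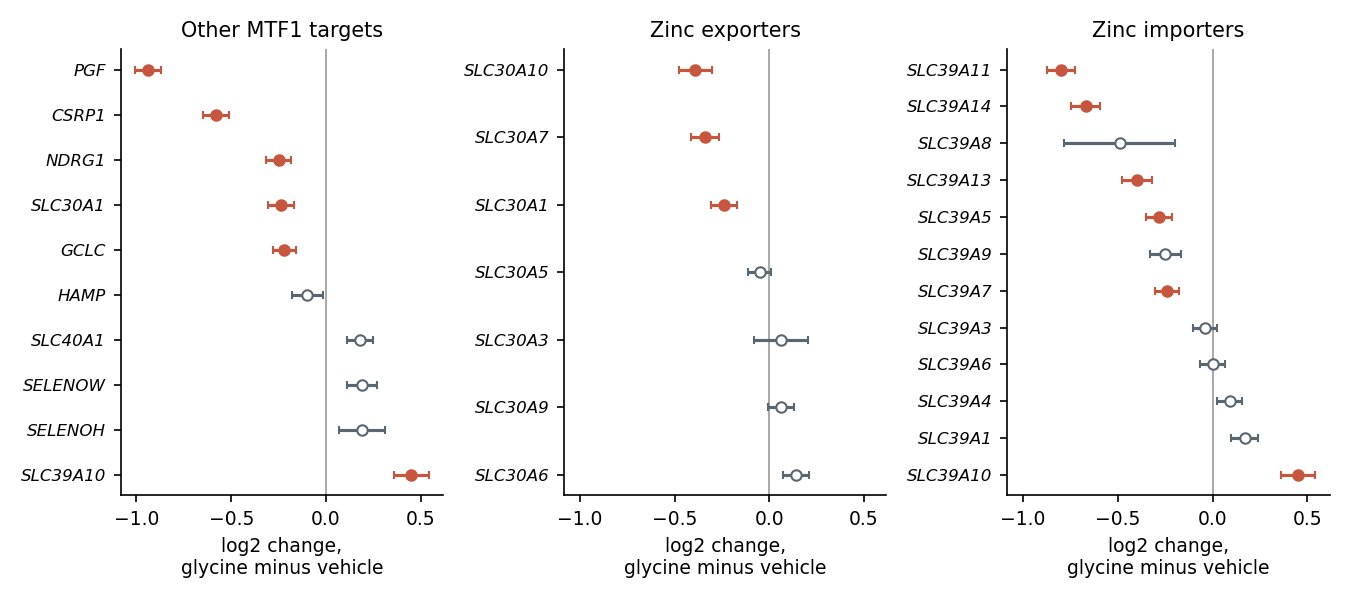
The log2 change of every fitted gene, glycine minus vehicle, in 3 panels for the other MTF1 targets, the zinc exporters and the zinc importers, with bars for the standard error. Filled points have an adjusted p below 0.05, and SLC39A10 is the filled point to the right of 0 while the others lie to its left.

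Other pathways known to act on metallothionein genes were described by lists of their usual response genes. Of 10 fitted glucocorticoid-responsive genes 3 were called, all lower, where 6.54% of all fitted genes were called lower. The list had a median of -0.22 on the log2 scale. PCK1, the gluconeogenic enzyme, fell from 1.8 ± 0.332 to 0.629 ± 0.0605 CPM (log2 change -1.49 ± 0.212, adjusted p = 0.000471). G6PC1 (-0.84, adjusted p = 0.0274) and SGK1 (-0.23, adjusted p = 0.0262) were called in the fit of all libraries. Without vehicle replicates 1 and 3 and glycine replicates 1 and 2, G6PC1 was at 0.0712, 0.069, 0.0762 and 0.132. SGK1 was at 0.0611 and 0.0512 without vehicle replicates 1 and 3 and at 0.0856, 0.0624 and 0.082 without glycine replicates 1, 2 and 3. The receptor gene NR3C1 (0.11) and the response genes FKBP5 (0.21), TSC22D3 (-0.30) and PER1 (-0.19) were not called. FKBP5, which was higher with glycine, passed without vehicle replicate 2 (0.034).

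Acute phase genes, which cytokines induce in hepatocytes, were higher with glycine where they were called. Of 13 listed, 9 were fitted, with a median of 0.35. Of these 5 were called, all higher, where 6.71% of all fitted genes were called higher. FGB (-0.16), FGG (-0.09), SERPINA3 (0.11) and IL6R (0.11) were not called. CRP, SAA1, SAA2 and LBP had too few counts to be fitted. SOCS3, a feedback inhibitor of cytokine signalling, rose from 0.803 ± 0.148 to 1.92 ± 0.132 CPM (log2 change 1.26, adjusted p = 0.000848). ORM1 rose by 0.61, HP by 0.53, ORM2 by 0.47 and FGA by 0.35 on the log2 scale, with adjusted p of 9.25e-05, 0.00016, 0.00153 and 0.00541. ORM1 and ORM2 are near-identical copies, so their reads may have been split between them.

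Of 12 metal and electrophile stress genes 1 was called, where 13.3% of all fitted genes were, and the median was -0.05. NQO1, a quinone reductase, fell by 0.32 on the log2 scale (adjusted p = 0.033), and this was lost without vehicle replicate 2 (0.0853) and glycine replicates 1 and 3 (0.0874 and 0.126). HMOX1, which cadmium and haem induce strongly, had a log2 change of 0.22 (adjusted p = 0.0555) and passed without vehicle replicate 3 (0.0234), with total counts as the scaling (0.0433) and without the filter on low genes (0.0375). Of 10 copper handling genes 1 was called, again beside 13.3% of all fitted genes. It was CP, the plasma copper oxidase, which rose by 0.45 (adjusted p = 0.00668), and the median of the list was -0.12. ATP7B, the hepatic copper exporter, was lower with glycine (log2 change -0.15) and was not called, but passed without vehicle replicate 3 (0.0322).

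The genes whose level followed the summed metallothionein level most closely were picked by Pearson correlation of log2 CPM over the 6 libraries, from the 9105 genes whose mean level reached 10 CPM. TMEM59 and EVA1B (both 0.999), YIPF2 (0.998), FBXO9 (0.996) and CCNY (0.994) were highest. TMTC4 (-0.992), RECQL5 (-0.991), MCL1 and CCNA2 (both -0.990) and DDX18 (-0.989) were lowest. The libraries form 2 groups that differ in the summed level, so any gene that differs between the groups scores high, and the values describe these libraries only.

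HepG2 was recognised by 9 of 9 hepatocyte and HepG2 markers above 10 CPM in every library, with sums between 29574 and 33629 CPM with vehicle and between 25393 and 29087 CPM with glycine. Of these, 2 were called lower, APOA1 (adjusted p = 0.0483 by edgeR) and TTR (0.00921), where 6.54% of all fitted genes were called lower. The median log2 change of the 9 was -0.26, and 8 of them lay below 0. ALB had a log2 change of -0.49 and was not called (0.0764). The 3 endothelial markers summed to between 4.59 and 5.75 CPM, with VWF called lower. The 3 leukocyte markers summed to between 2123 and 2326 CPM with vehicle and 1691 and 1850.1 CPM with glycine, nearly all of it LYZ, which fell from 2227 to 1786 CPM (adjusted p = 0.0172). CD68 rose from 1.33 to 2.07 CPM (adjusted p = 0.0226), and PTPRC was at or near 0. The 4 fibroblast markers summed to between 27 and 30.8 CPM with vehicle and 21.1 and 21.9 CPM with glycine. Among them PDGFRB fell from 26.9 to 17 CPM (adjusted p = 0.000137), COL1A1 rose from 2.15 to 4.38 CPM (adjusted p = 0.000585), and COL1A2 and DCN were near 0. The part of these shifts in the metallothionein values was not tested. Library totals ran from 31795489 to 58815986 counts, the deepest being glycine replicate 2.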

How the data were processed

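RNA was measured by sequencing in 6 HepG2 libraries, 3 per group. The values deposited by the authors are raw counts, 1 whole number per gene and library. The submitters' processing notes name Trimmomatic 0.36, STAR 2.5.2b, featureCounts of Subread 1.5.2 and GRCh38, without roles. Read length, strand setting and treatment of reads that fit several genes are not given in the sources used here. Totals ran from 31795489 to 58815986 counts, and 1 count was worth 0.017 to 0.0315 CPM, which covers counting error only.

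Counts were fitted in R 4.3.3 with edgeR 4.0.16 and its two-sided quasi-likelihood F-test (TMM scaling, minimum count 10, minimum total 15, group alone in the model), with Benjamini-Hochberg adjustment over 15492 genes and a threshold of 0.05. On simulated counts for this comparison, 174 of 200 genes with a log2 change of 1 among 15492 were recovered with 13 false calls. Replicates differed by more than counting noise (chi-square per degree of freedom 7.59 to 29.3), and p-values measure the spread between these libraries. The study describes its biological replicates as experiments of different days, but no label ties a replicate number to a day.

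Alternatives were DESeq2 1.42.0, its size factors, limma-voom (limma 3.58.1), total counts, no filter, blocking on the replicate number and dropping 1 library at a time. The family and the gene lists were chosen with earlier results of these data known. Genes named are all 9 members, list genes past the threshold, MTF1 targets, zinc transporters, chromosome 16 neighbours (1 is not reported here), and the 5 genes most and 5 least correlated with the summed level. Other list genes and markers were named after their values were seen. Upstream sequences are from RefSeq on GRCh38.p14.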

Additional observations from a re-analysis of the deposited data

How the results depend on the processing

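Over 12 alternatives MT1A (-0.02 to 0.09) and MTF1 (-0.05 to 0.09) had no fixed sign, and the other fitted members kept theirs: MT1X stayed between -1.28 and -1.18, MT1E between -0.75 and -0.68, MT1G between -0.96 and -0.87, MT1F between -1.12 and -0.99, and MT2A between -0.20 and -0.09 on the log2 scale. The summed level differed by -0.47 to -0.39 when a library was left out, and by -0.89 without MT2A. The share of MT2A rose by 11.58 to 12.91 percentage points.

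Leaving out a library moved the genes called higher from 1040 to between 587 and 927 (590 without vehicle replicate 1, 594, 617 and 587 without glycine replicates 1, 2 and 3). Genes called lower went from 1013 to between 655 and 1008, with 655 without glycine replicate 2. List genes called lower went from 16 to between 9 and 13 (9 and 10 without glycine replicates 1 and 3), and those called higher from 8 to between 7 and 9. Fewer libraries were fitted in each of these. Of 24 list genes called, 15 were called under every alternative and 0 reversed.

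Same-numbered libraries did not deviate together (correlations -0.058, -0.027 and -0.003, against -0.198 to 0.214 for different numbers), no library correlated best with its own number, and the numbers were not taken as pairs. A replicate block gave 864 genes called higher and 915 lower, and 7 and 12 of the list genes. It ended the calls of GCLC (adjusted p = 0.0645), SGK1 (0.0617), NUP93 (0.058), SLC30A1 (0.0562) and SLC39A7 (0.0551), and omitting the filter ended those of GCLC (0.053) and SGK1 (0.0601). DESeq2 gave no adjusted p for 902 genes.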
